A study of Mus musculus with 6 samples.

Results

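The unfolded protein response members described here are 10 genes chosen by name, and all 10 had a row both in the table of pooled oocytes (14165 genes) and in the table of single oocytes (54658 genes). They are the sensor genes Ern1, Atf6 and Eif2ak3, the transcription factor genes Xbp1, Atf4 and Ddit3, the chaperone genes Hsp90b1 and Calr, and the degradation genes Sel1l and Edem1. The samples were mouse oocytes labelled MII (metaphase II, where ovulated oocytes wait for fertilisation), and their polyadenylated RNA was amplified by Smart-seq2. Pools of 10 young oocytes made up 4 libraries: 2 carry the treatment label siCtrl, a control small interfering RNA, and 2 the label siPlat, one directed at Plat, the gene of tissue-type plasminogen activator. One further sample holds 35 single young oocytes and another 59 single aged oocytes, each oocyte with its own library and with no treatment named. Strain, age in weeks, the animals behind each sample and the way the small interfering RNA was delivered are not named in the labels. The p-values therefore speak of the spread among these pools alone, which may be technical.

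The unfolded protein response is the way a cell answers a load of misfolded protein in the endoplasmic reticulum (ER). Each of its sensors sits in the ER membrane: IRE1, encoded by Ern1, cuts the mRNA of Xbp1 so that it can be rejoined and translated into an active transcription factor; ATF6 travels to the Golgi and is cut there into a transcription factor; and PERK, encoded by Eif2ak3, phosphorylates the initiation factor eIF2, which slows translation in general and favours that of Atf4. The targets include chaperones, the machinery of ER-associated degradation and, under lasting stress, Ddit3, which encodes the death-promoting factor CHOP. An MII oocyte makes almost no new RNA and lives on stored transcripts from its growth phase, when it also made its zona proteins and cortical granules. Counts per gene here show the relative level of polyadenylated transcripts, and not the total amount of a transcript. They show neither the splicing of Xbp1, nor the cleavage of ATF6, nor the translation of Atf4.

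Pools held 12142884 to 17475952 gene counts, and replicates differed by more than counting error (chi-square per degree of freedom 18 and 28.5). Values are in CPM (counts scaled to a common library size, in the pools with TMM factors). The targeted gene Plat measured 441 and 439 CPM with siCtrl against 51.4 and 39.0 CPM with siPlat, each pair in the order of replicates 1 and 2. Gene counts per single oocyte ran from 5480050 to 11894782 in the young sample and from 2018226 to 9502184 in the aged. In 21 of the 59 aged oocytes mitochondrially encoded genes took over 5% of gene counts (6.78 to 61.6%), against at most 2.97% in the other 38 and 1.92% in the young. Aged values below are therefore given for all 59 oocytes or without these 21, as stated with each. Of 10 oocyte markers fixed as a list, none was at 0 in any group, and their summed level was 22000 to 32500 CPM in young oocytes, 19700 to 31500 in the 38 aged oocytes of low share and 751 to 3190 in the 21 of high share. The summed level of 12 cumulus and granulosa cell markers, Amh and Foxl2 among them, was 52.7 to 112 CPM in young oocytes, 39.2 to 107 in the 38 and 0 to 75 in the 21; Amh, Foxl2, Fshr and Pgr were at 0 counts in all young oocytes, and Cyp19a1 had the highest median, 67.4 CPM. Blood and immune markers summed to 4.74 to 21.2 CPM, 3.82 to 19 and 0 to 130 CPM in the same order, and stroma and endothelium markers to 102 to 234, 75.1 to 178 and 0 to 45.5 CPM. Of the latter list Pecam1 had the highest median in young oocytes, 162 CPM, while Col1a1 and Col3a1 had medians of 0 and Dcn of 0.937 CPM. In the pools 4 of the 12 cumulus and granulosa markers had a row, summing to 31.7 and 39.7 CPM in siCtrl and 27.5 and 45.8 CPM in siPlat.

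Within the young oocytes the sensor genes stood far apart. Counted per kilobase of exon, so that genes can be compared, Ern1 was at 117 CPM per kb in the summed counts of 35 young oocytes, above 96.8% of the 11691 genes with at least 1 CPM. Atf6 was at 14.1 CPM per kb and Eif2ak3 at 1.41 CPM per kb. In single young oocytes Ern1 ran from 76.2 to 175 CPM per kb, Atf6 from 7.42 to 19.4 and Eif2ak3 from 0.643 to 2.39, so the sensor genes did not overlap in any of these oocytes. Ern1 lies at chr11:106394650-106487852 on the minus strand, Atf6 at chr1:170704674-170867771 on the minus strand and Eif2ak3 at chr6:70844515-70905245 on the plus strand (mm10). The same order held in the siCtrl pools, at 24.2 and 22.2 CPM per kb for Ern1, 5.86 and 5.94 for Atf6 and 3.10 and 2.71 for Eif2ak3.

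Xbp1, the substrate of IRE1, was close to the limit of detection in every group. It had 65 counts over all 35 young oocytes, or 0.214 CPM (exact Poisson interval 0.165 to 0.273), and 18 of the 35 held a count. In the aged sample it had 100 counts, or 0.280 CPM (0.228 to 0.341). The 38 aged oocytes of low mitochondrial share held 52 of these, or 0.200 CPM (0.149 to 0.262). Among the pools it had 4 counts in siCtrl 1 and 0 in the other libraries, where a count of 0 allows up to 0.212 CPM in siCtrl 2, 0.259 in siPlat 1 and 0.236 in siPlat 2 (3 counts per library, counting error only). With counts this low the level is given without a ratio. No exon base of Xbp1 overlapped another gene in the GENCODE M21 annotation of GRCm38, the assembly that mm10 names. The stretch that IRE1 removes is shown because it lies in this scarcely detected transcript: a search of the coding part of Xbp1-201 for pairs of the loop letters CNGCNGN placed 26 bases apart found it in exon 4, at chr11:5524279-5524304 on the plus strand. A second such pair in exon 1 is a match of the letters only. In the line below, from chr11:5524270-5524314, capitals mark the 26 bases between the cuts, whose loss shifts the reading frame.

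Xbp1: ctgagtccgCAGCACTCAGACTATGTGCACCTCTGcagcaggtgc

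The cut and uncut forms of Xbp1 are counted together in these tables.

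The other members followed Ern1 in young oocytes in the order Calr (24.9 CPM per kb), Hsp90b1 (23.9), Atf4 (14.8), Atf6 (14.1), Edem1 (11.3), Sel1l (7.57), Ddit3 (1.94), Eif2ak3 (1.41) and Xbp1 (0.066). Neighbours in this order overlapped between oocytes from Calr down to Sel1l: Calr ran from 14.3 to 44.2 and Hsp90b1 from 14.1 to 32.6, Atf4 from 4.50 to 28.9, Edem1 from 6.86 to 17.5 and Sel1l from 4.60 to 11.3. Ddit3 (0 to 3.36) lay below every value of Sel1l and overlapped Eif2ak3. In the siCtrl pools the chaperones led, with Hsp90b1 at 90.1 and 98.6 and Calr at 81.6 and 101 CPM per kb, ahead of Ern1. Of the exon bases of Hsp90b1, 15.7% overlap other annotated genes, of Eif2ak3 8.05% and of Ddit3 4.73%. GENCODE M21 also lists 2 overlapping gene entries named Ddit3, so the counts of Ddit3 depend on the annotation used. Whether the counting used strand is not given in the sources used here, and reads from these bases cannot be told apart between the genes.

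Variation between young oocytes was lowest for Ern1 and, apart from the scarcely counted Xbp1, highest for Atf4 and Ddit3. The coefficient of variation of CPM over the 35 oocytes was 20.6% for Ern1, 21.8% for Hsp90b1 and 23.0% for Atf6, against 31.0% for Eif2ak3, 34.4% for Calr, 38.8% for Ddit3 and 44.7% for Atf4. After Xbp1, Ddit3 and Eif2ak3 had the fewest counts, 1008 and 2586 over all young oocytes. As a description over 35 oocytes that share a library layout and differ in depth, genes most like Ern1 by Spearman's rho among 8229 genes with at least 5 CPM included Mcm3ap (0.90) and Fat1 (0.89). For Atf6 the closest were Zdhhc7 (0.88), Pan2 (0.87) and Edc4 (0.87), and for Eif2ak3 Ccni (0.69), Cdc34 (0.67) and Wiz (0.65). Between the chaperones Hsp90b1 and Calr rho was 0.52 in the young oocytes and 0.65 in the 38 aged oocytes of low mitochondrial share. Ern1 and Hspa5, the gene of the central ER chaperone BiP, ran against each other in both, at -0.45 and -0.51. The chaperones did not share 1 pattern, since rho between Ern1 and Calr was 0.45 in both. Hspa5 had 0.60 and 0.02 with Hsp90b1, and 0.04 and -0.16 with Calr.

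The comparison of siPlat with siCtrl asked what changes in young MII oocytes depleted of Plat. Of the sensors, Ern1 fell while Atf6 and Eif2ak3 did not pass the test. Ern1 measured 198 and 182 CPM with siCtrl against 73.2 and 103 CPM with siPlat. Both siPlat pools lay below both siCtrl pools. The mean of 2 pools was 189.8 ± 11.5 CPM (SD) with siCtrl and 87.9 ± 20.8 CPM (SD) with siPlat, 2.16-fold lower, with a log2 fold change of -1.11 and an SE of 0.20 (edgeR adjusted p = 0.0131). CPM are relative levels, and in a pool fewer oocytes with the transcript and less of it per oocyte cannot be told apart. The call ended without siCtrl 1 (log2 fold change -1.04, adjusted p = 0.0667; the adjusted p was 2.29e-05 to 0.0667 over 9 alternatives).

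Eif2ak3 lay in the opposite direction. It measured 18.7 and 16.3 CPM with siCtrl against 27.1 and 40.3 CPM with siPlat, so that the groups did not overlap, and its log2 fold change of 0.94 (SE 0.25) did not pass (edgeR adjusted p = 0.0687). It passed by DESeq2 (adjusted p = 0.0252) and without the filter on low counts (0.0305). It also passed without siPlat 1 (0.00361; 0.00361 to 0.323 over the alternatives), where the spread comes from the siCtrl pair and the lone siPlat pool is assumed to vary alike. Atf6 measured 54.1 and 54.8 CPM with siCtrl against 37.4 and 40.9 CPM with siPlat. Its groups did not overlap either, and its log2 fold change of -0.48 (SE 0.19) did not pass (edgeR adjusted p = 0.199). Groups without overlap were common here, at 49.4% of the 11136 tested genes.

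**Figure D1:**
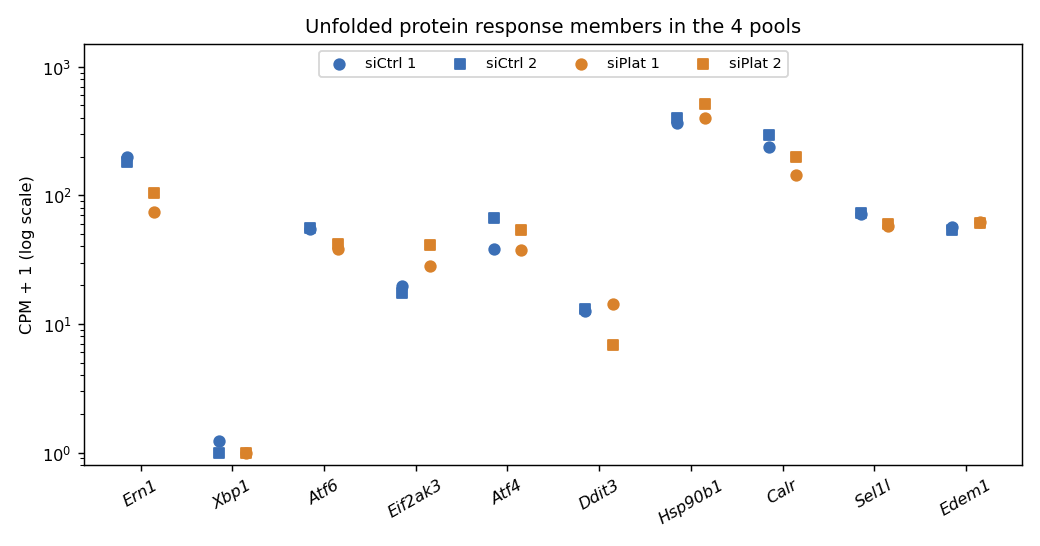
CPM + 1 on a log axis of the 10 members in the 4 pools, with circles for replicate 1, squares for replicate 2, blue for siCtrl and orange for siPlat. Both siPlat points lie below both siCtrl points for Ern1, Atf6, Calr and Sel1l and above them for Eif2ak3 and, by a small margin, Edem1.

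None of the transcription factor genes was called. Atf4 measured 37.1 and 65.2 CPM with siCtrl against 36.7 and 53.1 CPM with siPlat, with overlapping groups (log2 fold change -0.18, SE 0.28, edgeR adjusted p = 0.794). Ddit3 measured 11.7 and 12.2 CPM with siCtrl against 13.2 and 5.89 CPM with siPlat, a log2 fold change of -0.32 (SE 0.37), and the siPlat pools lay on either side of the siCtrl pools. Xbp1 did not reach the filter on low counts and was not tested.

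Of the effectors, the chaperone genes differed from each other in direction, and neither passed. Calr encodes calreticulin, a calcium-binding chaperone of glycoproteins, and measured 235 and 292 CPM with siCtrl against 143 and 197 CPM with siPlat. All siPlat values were lower, and its log2 fold change of -0.63 (SE 0.20) did not pass with edgeR (adjusted p = 0.108) but passed with DESeq2 (0.0456). It also passed without siPlat 2, again with a lone siPlat pool and the spread of the siCtrl pair (0.00289; 0.00289 to 0.547 over the alternatives). Hsp90b1, the gene of the ER form of HSP90, measured 364 and 398 CPM with siCtrl against 395 and 507 CPM with siPlat, a log2 fold change of 0.25 (SE 0.17, edgeR adjusted p = 0.479). Sel1l encodes the adaptor of the ubiquitin ligase that clears misfolded ER proteins. It measured 70.4 and 72.1 CPM with siCtrl against 56.4 and 59.0 CPM with siPlat (log2 fold change -0.30, SE 0.18). Edem1, whose product hands misfolded glycoproteins to degradation, measured 55.4 and 52.7 CPM with siCtrl against 61.3 and 59.9 CPM with siPlat (0.16, SE 0.18).

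In all, 1 of 9 tested members was called, against 3.54% of all tested genes (1.41% lower in siPlat and 2.13% higher), and 4 of 9 had an unadjusted p under 0.05 against 18.8% of all. The median log2 fold change of the 9 was -0.30, beside -0.03 over all tested genes. The members were chosen with these results known, so the counts describe them and are no test of the list. Of the 10 oocyte markers 3 fell in these pools, with a median log2 fold change of -0.64 over all 10, and their summed level was 20000 to 22700 CPM with siCtrl against 16400 to 16600 CPM with siPlat. Their part in the values of the members was not tested.

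The rest of the pathway was read from 4 lists with 67 genes, 56 of them tested in the pools. Of these 56, 2 fell, 2 rose and 52 did not pass, beside 1.41% of all tested genes lower and 2.13% higher. Among 18 tested ER chaperones and foldases P4hb, a protein disulfide isomerase, fell, from 105 and 131 CPM to 65.7 and 65.8 CPM (edgeR adjusted p = 0.0313 for a log2 fold change of -0.84 with an SE of 0.18). Its call ended without siCtrl 1 (adjusted p = 0.0714) and without siCtrl 2 (0.309; 0.00207 to 0.309 over the alternatives). Hspa5 measured 176 and 216 CPM with siCtrl against 180 and 164 CPM with siPlat, overlapping between the groups.

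Among 11 tested genes of the integrated stress response, the branch that PERK shares with other eIF2 kinases, Cebpb rose. This gene of a C/EBP transcription factor went from 6.22 and 7.77 CPM to 17.8 and 27.5 CPM (edgeR adjusted p = 0.0146 for a log2 fold change of 1.70 with an SE of 0.31), and its call ended without siCtrl 1 (0.0761; 1.35e-04 to 0.0761 over the alternatives). Among 11 tested partners of the IRE1 and ATF6 branches, subunits of the CCAAT-binding factor NF-Y, with which ATF6 binds promoters, moved in opposite directions. Nfya fell from 235 and 228 CPM to 41.6 and 42.2 CPM (edgeR adjusted p = 2.56e-05 for a log2 fold change of -2.46 with an SE of 0.17). Nfyb rose from 67.4 and 57.0 CPM to 116 and 102 CPM (0.81, SE 0.18, adjusted p = 0.0371), a call that ended without siCtrl 1 (0.129) and without siCtrl 2 (0.318; 0.00257 to 0.318 over the alternatives).

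Of 16 tested genes of ER-associated degradation none passed in the main edgeR fit, with 1 at an unadjusted p under 0.05. Herpud1 was called by DESeq2 (adjusted p = 0.00146) and by edgeR with the replicate number as a block (adjusted p = 0.0118). Its log2 fold change was -5.68 in the main fit and -6.52 without siCtrl 1. Herpud1, a stress-induced gene of the degradation machinery, had 16 and 119 counts in siCtrl and 0 and 2 counts in siPlat, so that most of its counts came from siCtrl 2 (edgeR adjusted p = 0.0660; 5.27e-04 to 0.670 over the alternatives). The other genes with a large difference that did not pass were Selenos (-1.11), Derl1 (-0.85), Uggt1 (-0.81) and Atf6b (-0.80), all on the log2 scale.

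**Figure D2:**
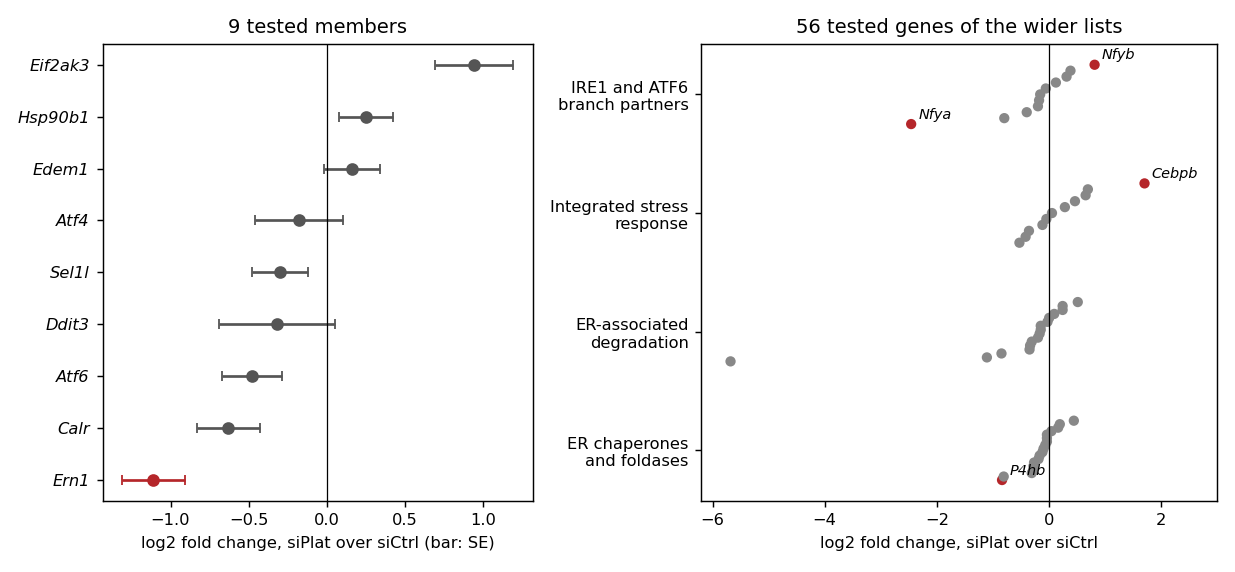
Left, log2 fold change (siPlat over siCtrl) of the 9 tested members with its SE; right, the same value for the 56 tested genes of the 4 wider lists, 1 point per gene, with red for an edgeR adjusted p under 0.05. Ern1 at -1.11 is the red point among the members, and Nfya, Nfyb, Cebpb and P4hb are the red points on the right.

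Promoters were read because the chaperone targets of ATF6 and NF-Y share a known letter pattern, the ER stress response element (ERSE): CCAAT, any 9 bases and CCACG, where the CCAAT part is also the NF-Y box. RefSeq windows of GRCm38.p6, from 250 bases before to 50 bases after each start, were searched on both strands and held it in 37 of 27025 genes (0.137%). It was present in 2 of the 9 members searched (all but Atf6), Hsp90b1 and Calr. It was also present in 6 of 16 ER chaperones and foldases (Hspa5, Canx, Creld2, Dnajc3, Ero1b and Pdia6) and in 2 of 13 degradation genes (Derl3 and Syvn1), and in none of the genes of the other lists. The pattern was first defined in promoters of such chaperone genes, so these matches are a description and no independent evidence. The related ERSE-II pattern (ATTGG, any base and CCACG; both strands) was in 12 of the 27025 genes, among them Dnajb11 and Herpud1. The windows of the member chaperones and of Hspa5 follow, 5′ to 3′ on the strand of the gene with the match in capitals: Hsp90b1 on the minus strand at chr10:86705626-86705668 (ERSE on the gene strand) and chr10:86705521-86705563 (ERSE on the other strand), Calr on the minus strand at chr8:84847063-84847105 (other strand) and Hspa5 on the plus strand at chr2:34772013-34772055 (gene strand).

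Hsp90b1, first match: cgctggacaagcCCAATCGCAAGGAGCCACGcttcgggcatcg
Hsp90b1, second match: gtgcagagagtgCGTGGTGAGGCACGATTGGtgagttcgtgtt
Calr: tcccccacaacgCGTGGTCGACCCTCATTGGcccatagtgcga
Hspa5: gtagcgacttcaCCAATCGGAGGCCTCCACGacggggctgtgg

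Of the 10 genes with such a match, 0 were called by edgeR on all 4 pools, beside 3.54% of all tested genes; Calr was called by DESeq2, and Calr and Ero1b by edgeR without siPlat 2. Their log2 fold changes ran from -0.63 for Calr to 0.44 for Ero1b with a median of -0.07. Between the aged oocytes of low mitochondrial share and the young, their log2 ratios ran from -0.29 for Pdia6 to 0.63 for Calr with a median of 0.24.

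The comparison of aged with young oocytes had 1 sample per age, so it has no replicate check and no test, and the Poisson intervals cover counting error only. Ratios are log2 ratios of summed CPM with 1 CPM added. In summed CPM over all 59 aged oocytes the sensors were lower and Atf4 higher, but Ern1 had a log2 ratio of 0.00 from medians over oocytes, and Atf4 one of 0.28 without 2 of the 59 oocytes and of -0.73 scaled to ERCC counts. Ern1 summed to 958 CPM in young (interval 955 to 962) and 774 CPM in aged oocytes (771 to 777), which gives a log2 ratio of -0.31. Atf6 was at 92.7 against 130 CPM (-0.49) and Eif2ak3 at 7.08 against 8.52 CPM (-0.24). Atf4 summed to 34.9 CPM in young (34.2 to 35.5) and 57.5 CPM in aged oocytes (56.7 to 58.3), a ratio of 0.71. With all 59, the ratio was 0.24 for Calr, 0.02 for Hsp90b1, -0.40 for Sel1l and -0.31 for Edem1. Ddit3, under the minimum of 5 CPM in the mean of both groups, had 0.61. Of the 8 members whose mean of both groups reached 5 CPM, 1 (Atf4, which was under 1.5-fold without those 2 oocytes) was at least 1.5-fold higher, against 9.45% of 8303 genes, and 0 were at least 1.5-fold lower, against 9.38%.

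Without the 21 oocytes of high mitochondrial share the differences of the sensors were small. Ern1 ran from 623 to 1430 CPM in the young (median 935) and from 764 to 1332 CPM in these 38 (median 1075), with a log2 ratio of 0.12. Atf6 (medians 132 and 124 CPM) had a ratio of -0.11, and Eif2ak3 (medians 8.14 and 9.20 CPM) of 0.11. The ranges of each sensor overlapped over most of their length, beside a median ratio of 0.08 over all genes.

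In CPM, the members Ddit3, Atf4, Calr and Hsp90b1 were higher in these 38 aged oocytes, a direction that ERCC scaling turned for all but Ddit3. Ddit3 ran from 0 to 5.75 CPM in the young (median 3.33) and from 2.62 to 14.8 CPM in the 38 (median 7.25), a log2 ratio of 0.92. Its level was above that of the highest young oocyte in 29 of the 38, a number that 1.39% of 8413 genes reached. With summed levels of 3.32 and 7.17 CPM Ddit3 passed the minimum of 5 CPM only through the aged group. The 1.39% is therefore a description and no evidence that the difference of Ddit3 was rare. The ratio of Ddit3 was 0.55 with 5 CPM added in place of 1. Atf4 ran from 10.6 to 68.0 CPM in the young (median 32.6) and from 20.2 to 121 CPM in the 38 (median 49.2), a ratio of 0.50, with 32 of the 38 above the young median, a number that 18.4% of 8413 genes reached.

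Calr ran from 41.1 to 127 CPM in the young (median 65.4) and from 60.8 to 214 CPM in the 38 (median 108), a log2 ratio of 0.63. Hsp90b1 ran from 56.7 to 132 CPM (median 93.9) and from 85.4 to 204 CPM (median 126), a ratio of 0.38. Calr lay above the young median in 37 and Hsp90b1 in 36 of the 38 oocytes, numbers that 5.47% and 7.73% of genes reached. Both overlapped the young range, with 13 of the 38 above the highest young oocyte for each, a number that 8.96% of genes reached. The degradation genes differed little: Sel1l had medians of 59.2 and 63.3 CPM (log2 ratio of sums -0.09) and Edem1 of 72.7 and 67.9 CPM (-0.17). Leaving out Ddit3, 1 of the 8 members with at least 5 CPM, Calr, was at least 1.5-fold higher, against 8.87% of 8413 genes, and 0 were at least 1.5-fold lower, against 1.87%. With the mitochondrial threshold at 2%, which kept 29 aged oocytes, the ratio of Calr was 0.49, under 1.5-fold. Scaled to ERCC spike-in counts instead, where the median of all genes was -0.73, Ddit3 was the member with a positive ratio (0.21), and Calr (-0.20), Atf4 (-0.32) and Hsp90b1 (-0.44) were negative but above that median, while Ern1 (-0.71) was near it and Atf6 (-0.94) and Edem1 (-0.99) below it. With all 59 aged oocytes every member was negative on this scale, Atf4 at -0.73 and Ern1 at -1.79 beside a median of -1.47. ERCC counts were uneven among the young oocytes, with none between 110006 and 184609 in a range of 70141 to 427387. The 38 aged oocytes had 117428 to 431162. The part of this unevenness in the ERCC-scaled ratios was not tested.

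**Figure D3:**
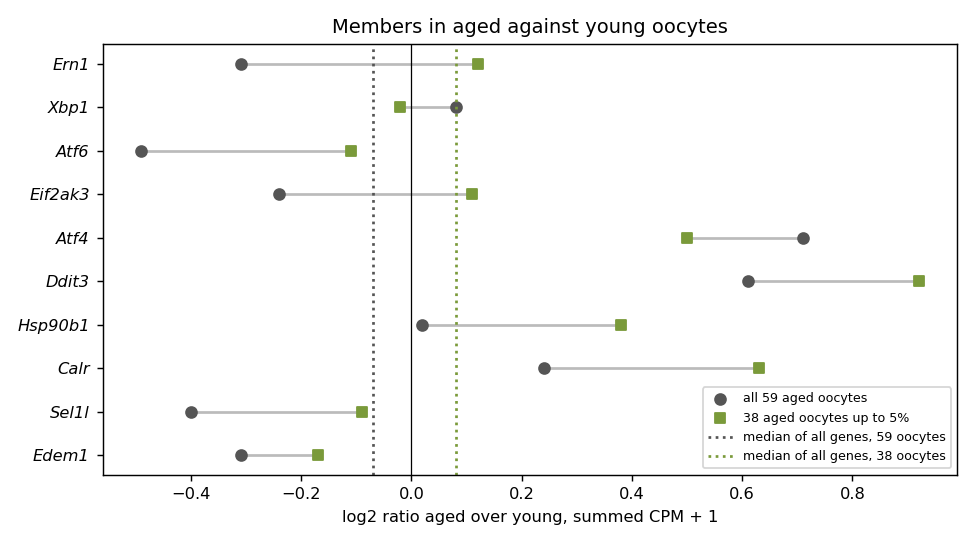
Log2 ratio of aged over young (summed CPM + 1) for the 10 members, with grey circles for all 59 aged oocytes, green squares for the 38 with a mitochondrial share up to 5%, and dotted lines for the medians of all genes with at least 5 CPM (-0.07 and 0.08). Ern1 and Eif2ak3 lie below 0 with all oocytes and above it without the 21 of high share, while Atf4, Ddit3, Hsp90b1 and Calr lie above 0 in both; scaled to ERCC counts, of these values only Ddit3 without the 21 (0.21) is above 0.

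Of the 45 genes of the wider lists with at least 5 CPM, 3 were at least 1.5-fold higher in the 38 aged oocytes and 0 lower, beside 8.87% and 1.87% of all genes. Of 16 ER chaperones and foldases 9 were higher and 7 lower (median 0.05), and of 8 integrated stress response genes 2 were higher and 6 lower (median -0.12). The 3 were Pdia3, the disulfide isomerase that works with calreticulin (40.7 CPM in young, 100 CPM in aged, log2 ratio 1.28), Ddit4, a stress-induced inhibitor of mTOR (28.5 and 58.9 CPM, 1.02), and Uggt1, which returns unfolded glycoproteins to calreticulin (15.7 and 25.2 CPM, 0.65). Pdia3 lay above the highest young oocyte in 36 of the 38. A count of 29 or more was reached by 1.39% of 8413 genes, so at most that share reached 36. Pdia3 was named for having the highest ratio of the 45, so its count is a description only. The lowest ratios were those of Vcp, the segregase of ER-associated degradation (-0.56), Cebpg (-0.51) and Derl1 (-0.44). Hspa5 was at 150 and 214 CPM (0.51), with a ratio of 0.08 when all 59 aged oocytes were summed. The median of these 45 genes was 0.01, beside 0.08 over all genes. With all 59 oocytes Ddit4 (1.45), Pdia3 (0.92) and Uggt1 (0.24) were again highest, and Vcp (-0.93), Derl1 (-0.85) and Txndc5 (-0.83) lowest.

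**Figure D4:**
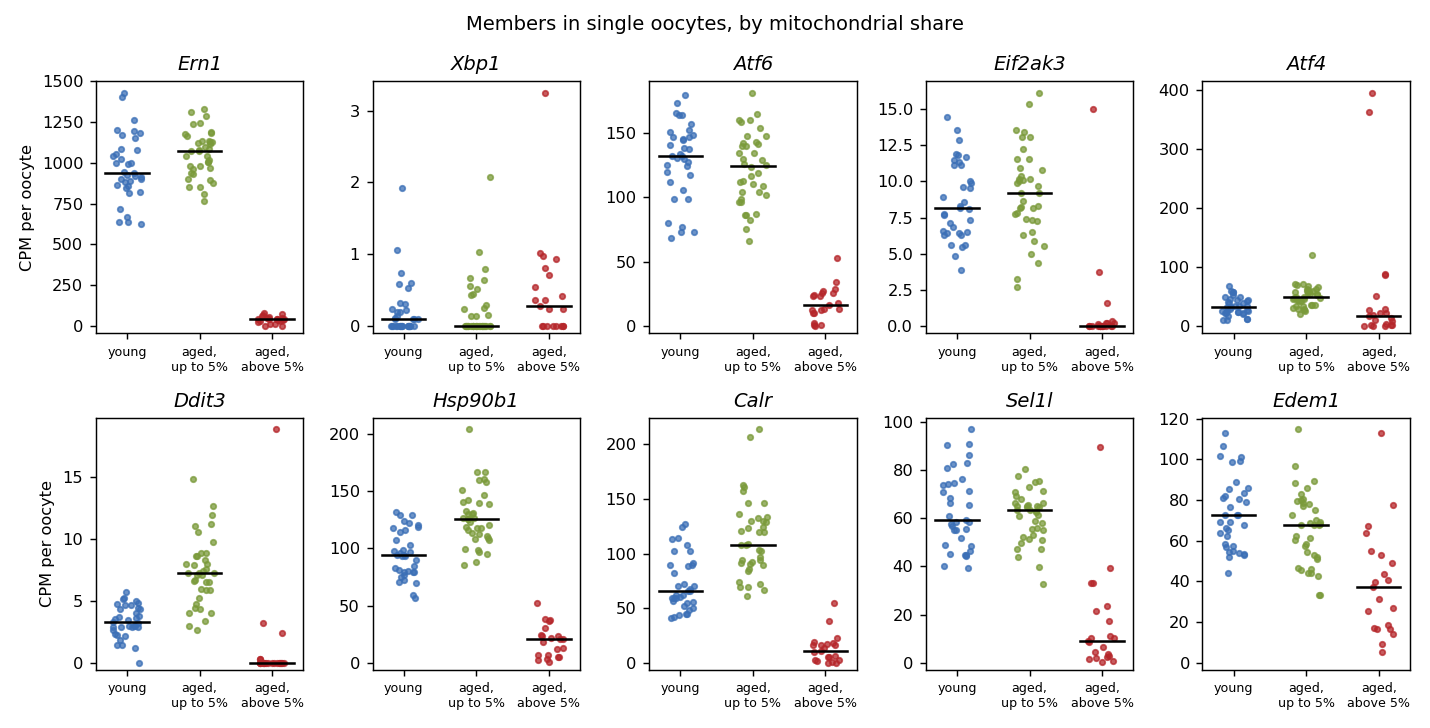
CPM of each member in every single oocyte, in 3 columns: 35 young, 38 aged with a mitochondrial share up to 5%, and 21 aged above 5%; black lines are medians. Ern1, Atf6, Hsp90b1 and Calr drop to a low band in the third column, while Ddit3 and Calr sit higher in the second column than in the first.

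In the 21 aged oocytes of high mitochondrial share most members were scarce. Ern1 ran from 3.01 to 80.7 CPM (median 42.7), below every one of the other 38, and its summed level was 24.7-fold lower (log2 ratio -4.62). Atf6 (at most 52.7 CPM, ratio -2.66), Hsp90b1 (at most 52.3 CPM, -2.58) and Calr (at most 54.5 CPM, -2.90) were also below the lowest of the 38 in all 21. The share of all genes with all 21 below the lowest of the 38 was not computed, and the separation was not particular to the members. Of the wider lists, Hspa5 (at most 33.3 CPM in the 21, at least 85.4 in the 38) and P4hb (52.6 and 372) also separated. Canx (at most 172 CPM in the 21, at least 150 in the 38) overlapped. Ddit3 had a count in 5 and Eif2ak3 in 8 of the 21, with highest values, in different oocytes, of 18.9 CPM for Ddit3 and 15.01 CPM for Eif2ak3. Edem1 was the member with the smallest deficit, at 5.37 to 113 CPM (median 37.5) and a ratio of -0.57. CPM totals include the mitochondrially encoded counts, 6.78 to 61.6% in the 21 and at most 2.97% in the 38. That share lowers the CPM of every other gene in the 21, and ratios without these counts were not computed here. Of the 8 members with at least 5 CPM, 6 were at least 1.5-fold lower than in the 38, against 58.5% of 8087 genes, so a lower level was common to most genes. The median log2 ratio was -2.45 over these 8 and -2.58 over 45 wider-list genes, beside -0.94 over all genes. The minimum is on the mean of both groups, so genes high in the 38 alone pass it. Pdia4 of the wider lists did so, at 0.873 CPM in the 21 and 24.9 CPM in the 38. The count of 6 and these medians are therefore a description and no evidence of a deficit particular to the pathway. Eif2ak3, among the 6, was at 1.06 CPM in the 21 and 9.30 CPM in the 38. It passed the minimum of 5 CPM only through the 38. The libraries of the 21 also held 2018226 to 8648061 gene counts and 7385 to 13849 genes with a count, against 14724 to 17623 genes in the 38. The part of depth and RNA quality in these values was not tested.

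Atf4 had a summed level of 78.5 CPM in the 21, above the 49.7 CPM of the 38, but this rested on a pair of oocytes. Those 2 held 395 and 362 CPM of Atf4 and had the lowest mitochondrial shares of the 21, 6.78 and 6.80%; the highest of the 38 had 121 CPM. The next 2 by mitochondrial share, at 11.5 and 18.2%, had 87.8 and 86.9 CPM, and the median of the 21 was 17.7 CPM. Without the pair, an alternative chosen after the values were seen, Atf4 was at 19.8 CPM in the other 19, and the log2 ratio of all aged over young oocytes went from 0.71 to 0.28. In these 2 oocytes Ern1 was at 55.3 and 80.7 CPM, Hsp90b1 at 23.0 and 37.6 CPM and Ddit3 at 3.21 and 2.43 CPM.

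**Figure D5:**
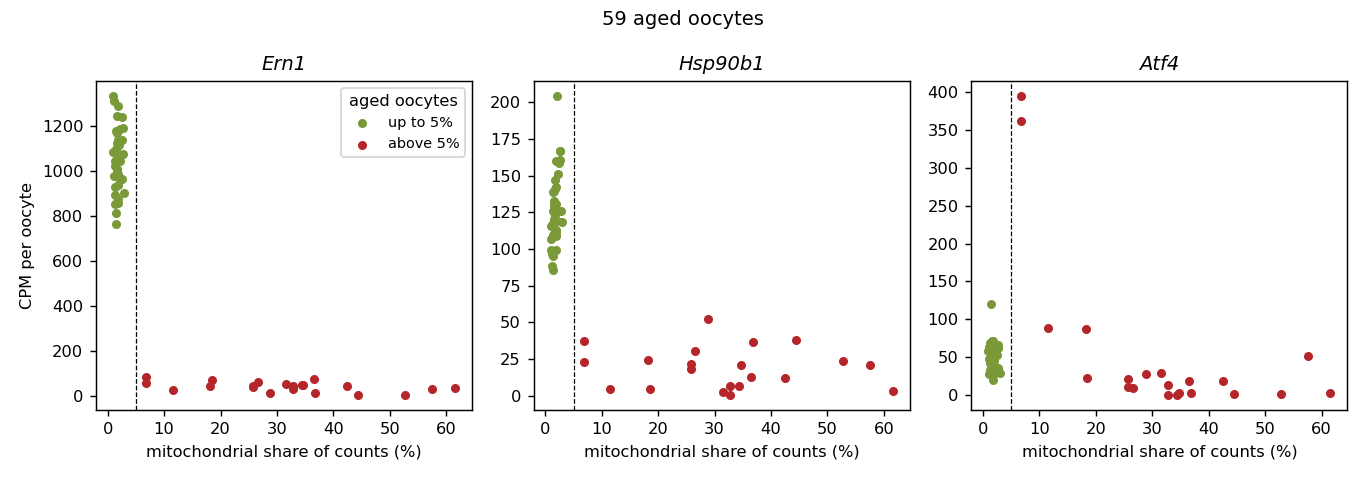
CPM of Ern1, Hsp90b1 and Atf4 in the 59 aged oocytes against the mitochondrially encoded share of gene counts in percent, with the dashed line at 5%. Ern1 and Hsp90b1 form separate bands on either side of the line, and the 2 oocytes of 395 and 362 CPM of Atf4 lie just right of it.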

How the data were processed

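Both tables the authors deposited give raw counts per gene as whole numbers, for the 4 pools and for the 94 single oocytes. STAR 2.7.10b, HTSeq 0.13.5 and mm10 are named per the submitters' processing notes, without roles; annotation, gene filter and strand setting are not given in the sources used here. The 92 ERCC spike-in entries stayed out of gene totals. The table of pools held 0 mitochondrially encoded genes, so the pools could not be split by mitochondrial share.

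Pools were tested across all genes with the quasi-likelihood test of edgeR 4.0.16 (R 4.3.3; TMM, robust fit, default expression filter with a minimum count of 10 and minimum total of 15), with Benjamini-Hochberg adjustment over 11136 genes and a threshold of 0.05. The SE is the absolute log2 fold change divided by the square root of F. DESeq2 1.42.0, limma-voom (limma 3.58.1), RLE factors, no filter, the replicate number as a block and leaving out each library were the alternatives. The edgeR script was tested on simulated data. Counts of single oocytes were summed per group as CPM with exact Poisson intervals (95%, scipy 1.17.1). Exon lengths and positions came from GENCODE M21.

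The members and lists were chosen with earlier results of these data known. Named were all members, Plat, the wider-list genes called in the pools with the 5 largest other differences, the 3 highest and 3 lowest wider-list ratios by age with at least 5 CPM, and the 3 genes most like each sensor, of which 1 is not reported here. Synonyms in RefSeq placed Ero1a, Ero1b and H1f8 in the single-oocyte table. Hspa5 and other genes with an ERSE match, and the 2 oocytes high in Atf4, were singled out after their values were seen.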

Additional observations from a re-analysis of the deposited data

How the results depend on the processing

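Called genes numbered 394 in the pools and 157 to 1145 with 1 library left out (fewest without siCtrl 1, most without siPlat 2), and 678 by DESeq2. Of the members, 0 to 2 were called with 1 library left out, 2 without the filter and 3 by DESeq2; Nfya was called in all 9 alternatives, and of the 58 to 60 wider-list genes tested with 1 library left out 2 to 7 were called. With the replicate number as a block the counts were 273 genes, 1 member (Ern1) and 3 wider-list genes, without P4hb (adjusted p = 0.06) and Nfyb (0.0623) and with Herpud1 (0.0118). The labels do not say that equal numbers share a batch, and deviations of same-numbered pools correlated at -0.0979 over 11078 genes. The median log2 ratio of the 10 members in aged over young was -0.11; it was -0.24 with the mean over oocytes, -0.27 over members with at least 5 CPM, -0.01 with totals without mitochondrially encoded genes and -1.43 scaled to ERCC counts. Without the 21 oocytes of high mitochondrial share it was 0.12, 0.18 with the median over oocytes and -0.53 scaled to ERCC counts. ERCC scaling moved the median of all genes from -0.07 to -1.47 and from 0.08 to -0.73. Under it the ratios of Atf4 (-0.73), Ddit3 (-0.53), Calr (-1.21) and Hsp90b1 (-1.44) with all aged oocytes turned negative. Those of Calr (-0.20), Atf4 (-0.32), Hsp90b1 (-0.44), Ern1 (-0.71) and Eif2ak3 (-0.62) turned negative without the 21. Xbp1 is left out here for its low counts. ERCC counts per oocyte ran from 70141 to 427387 in the young sample and from 117428 to 1553073 in the aged. That every oocyte received an equal spike-in amount was not tested. Other causes of these shifts were not tested.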

Other observations

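The siCtrl pools and the young single oocytes, both labelled young and MII, differed in which member led. Ern1 was at 958 CPM in the summed young oocytes and at 198 and 182 CPM in the siCtrl pools, while Hsp90b1 was at 96.5 CPM against 364 and 398 CPM and Calr at 71.7 CPM against 235 and 292 CPM. P4hb and Txndc5 lay the same way as Ern1, at 664 and 438 CPM in the young oocytes and at 118 ± 18.5 and 42.3 ± 7.13 CPM in siCtrl (SD, n = 2). Genes outside the pathway also differed, in both directions. Plat ran from 4295 to 9913 CPM in young oocytes against 440 ± 1.4 CPM in siCtrl. Gdf9 had a young median of 10500 CPM against 2920 ± 136 CPM, while Ooep had 384 against 4443 ± 565 CPM. These are values from separate tables with different gene sets and library layouts, and no test was made between them.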
